A study of Arabidopsis thaliana with 12 samples.

Results

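PRA1.B3 (locus AT5G05380) and PRA1.B6 (locus AT5G07110) are 2 genes of the prenylated Rab acceptor 1 (PRA1) family of Arabidopsis thaliana. They were chosen as the family genes that the array's annotation table pairs with a probe of their own, 2 of the 692 probes with a single annotated gene (691 genes) among 3439 probes. The choice was made with their levels at both ages already known, so their difference between ages is given as a description and carries no test. RNA came from wild-type Arabidopsis of ecotype Columbia 0, an inbred laboratory strain, as total RNA from plants 4 weeks old (6 samples) and 2 weeks old (6 samples). No treatment or mutation is given in the labels for either age, and they name neither the organ nor the growth conditions, nor whether each sample stands for plants of its own. The spread between samples may therefore be technical.

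Rab proteins are small GTPases that direct vesicles to their target membrane. They hold on to membranes through a prenyl lipid tail, and GDP dissociation inhibitors (GDI) take them off the membrane and carry them through the cytosol. PRA1 proteins are small membrane-spanning proteins that bind prenylated Rabs, and the human homolog, also called Yip3, can release Rabs from GDI so that they re-enter a membrane. In Arabidopsis the family has grown into the groups A to H, whose proteins lie on the endoplasmic reticulum, the Golgi and endosomes. PRA1.B6 has been described as a factor that slows the export of some proteins from the endoplasmic reticulum, and PRA1.B3 is known here only by its place in group B.

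The deposited intensities are linear values between 0 and 100 in each sample. The sample medians of all probes lay between 0.390 and 0.445 at 4 weeks and between 0.0946 and 0.116 at 2 weeks. For this reason the arrays were quantile normalized, and log2 was taken after raising the dimmest values to a floor of 0.0152, which is the 1st percentile of all normalized values above 0. Deposited values of 0 went to the floor too. They made up 12.2% to 13.7% of the probes in a 4-week sample and 16.2% to 20.2% in a 2-week sample. After a filter that asked for a value above the floor in at least 6 of the 12 samples, 2961 probes or genes remained, among them both PRA1 genes. Of these 2961, between 2.06% and 2.53% were at the floor in a 4-week sample and between 5.37% and 9.63% in a 2-week sample. PRA1.B6 lay above the floor in 12 samples and PRA1.B3 in 11. In bulk RNA, fewer cells that express a gene and less RNA per cell cannot be told apart.

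PRA1.B3 was lower at 4 weeks than at 2 weeks in each of the 6 sample numbers. At 2 weeks its normalized intensity was 1.67, 1.63, 1.75, 1.65, 1.50 and 1.57 in samples 1 to 6. At 4 weeks it was 0.263, 0.209, 0.107, 0, 0.353 and 0.370 in samples 1 to 6, where the 0 is the deposited value of sample 4. The 2-week samples lie close together, whereas the 4-week samples spread widely, with samples 3 and 4 the low ones, and the ages do not overlap. Normalized intensity averaged 1.63 ± 0.0851 (SD, n = 6) in the younger plants and 0.219 ± 0.139 in the older ones, with sample 4 set to the floor. The 2-week mean was 7.43 times the 4-week mean, and the 2-week median 6.95 times the 4-week median.

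On the log2 scale, where the sample at the floor weighs more, the change of PRA1.B3 was -3.43 (SE 0.66), a 10.8-fold lower level at 4 weeks. 4-week sample 4 has a large part in that size: without it the change was -2.83 (SE 0.28), and without samples 3 and 4 of both ages it was -2.46 (SE 0.20). By sample number, the log2 change was -2.67, -2.96, -4.03, -6.76, -2.09 and -2.09 in numbers 1 to 6. The value of number 4 is set by the floor. In the other numbers the level at 2 weeks was between 4.26 and 16.4 times that at 4 weeks.

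PRA1.B6 was also lower at 4 weeks in each of the 6 sample numbers, and all 12 samples measured it. Its normalized intensity was 4.26, 4.60, 4.33, 3.86, 3.64 and 3.58 in samples 1 to 6 at 2 weeks. At 4 weeks it was 1.30, 1.85, 1.54, 1.51, 1.57 and 1.39. The highest 4-week sample, number 2, is still well below the lowest 2-week sample, number 6, so the ages do not overlap. Its mean was 4.05 ± 0.409 (SD, n = 6) in the younger plants and 1.53 ± 0.189 in the older ones, and the log2 change was -1.41 (SE 0.11), a 2.65-fold lower level at 4 weeks. By sample number the change ran from -1.71 in number 1 to -1.21 in number 5.

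**Figure D1:**
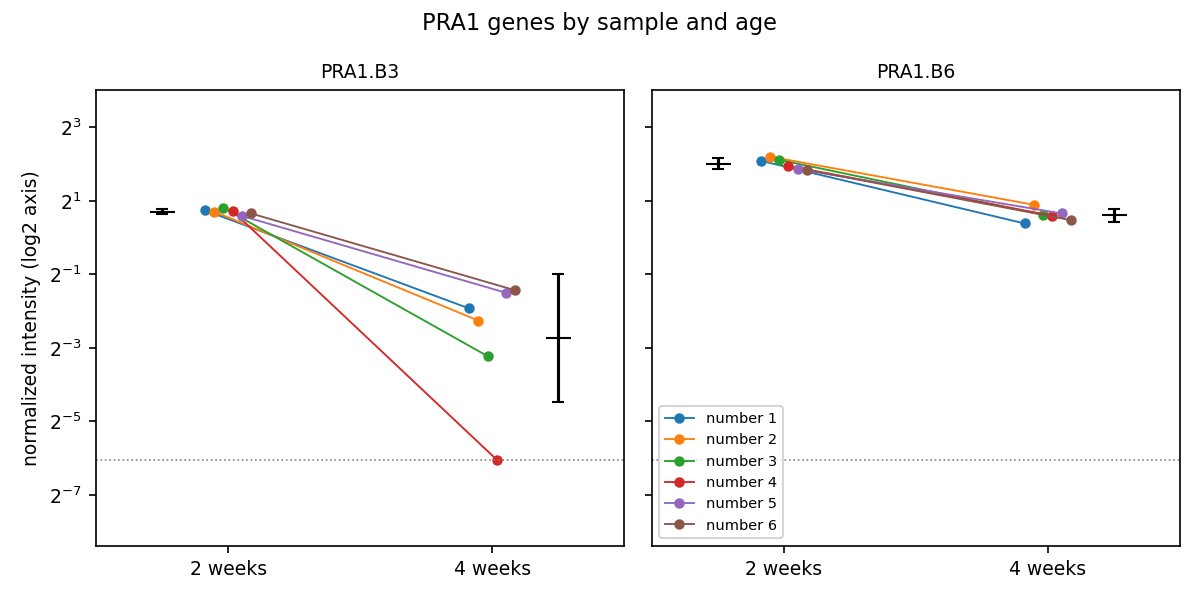
Normalized intensity of PRA1.B3 and PRA1.B6 (vertical log2 axis, no unit) in each sample at 2 and 4 weeks; lines join samples of the same number, the black bars beside the points are the mean ± SD of the log2 values (n = 6), and the dotted line is the floor, 0.0152. The 12 samples of PRA1.B6 form a tight group at each age, whereas PRA1.B3 is tight at 2 weeks and spread at 4 weeks, with sample 4 at the floor.

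Both PRA1 genes thus had 4-week samples that all lay below their 2-week samples. Across the array, 23.7% of the tested probes had this pattern, and limma called 31.1% lower at 4 weeks. The values of both genes are the ones they were chosen on, so nothing is read from the comparison with these shares. Of the 2961 tested probes and genes, 47 had a more negative log2 change than PRA1.B3 and 477 a more negative one than PRA1.B6. Among the 593 named genes tested these numbers were 4 and 84. The place of PRA1.B3 depends on 4-week sample 4, at the floor: in a fit without that sample, added after the data were seen, 115 of 2896 tested probes and genes and 14 of 580 named genes had a more negative change than its -2.83. For PRA1.B6 the numbers were then 471 and 83.

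**Figure D2:**
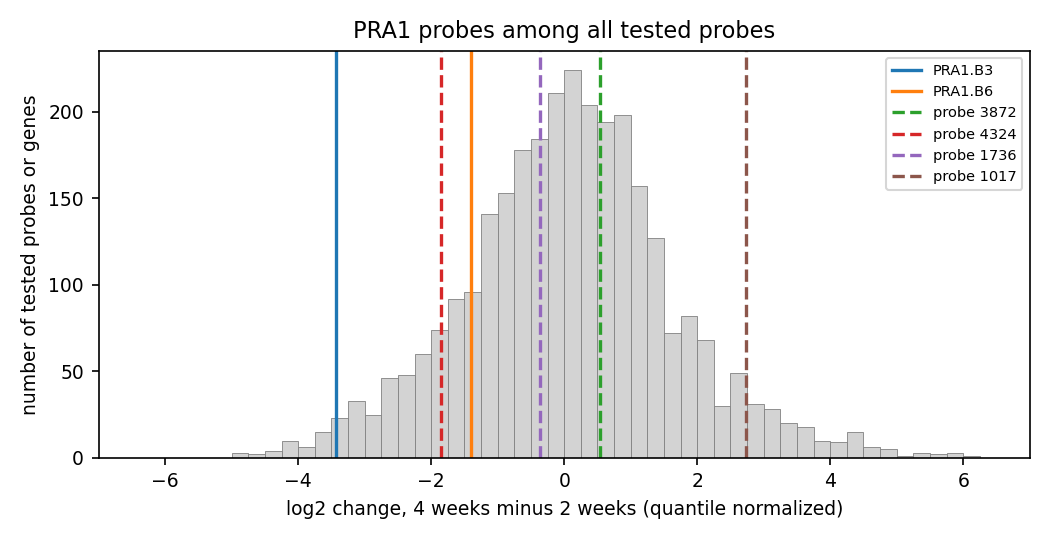
Number of tested probes or genes (vertical axis) by log2 change, 4 weeks minus 2 weeks, after quantile normalization (horizontal axis, bars of equal width); solid lines mark the PRA1 genes and dashed lines the probes annotated to several PRA1 genes. PRA1.B3, at -3.43 with 4-week sample 4 at the floor and at -2.83 without that sample, lies in the left tail, PRA1.B6, at -1.41, on its shoulder, and the 4 other probes lie between -1.85 and 2.73.

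The change of PRA1.B3 was the more negative of the pair in each sample number. After quantile normalization, the difference of the log2 changes, PRA1.B3 minus PRA1.B6, was -0.96, -1.65, -2.54, -5.41, -0.88 and -0.72 in numbers 1 to 6. Its mean was -2.03 ± 1.79 (SD, n = 6), so the spread between numbers is nearly as wide as the difference itself. Without number 4 it was -1.35 ± 0.754 (SD, n = 5). The size of the difference also moves with the scaling. Over all 6 numbers its mean was -1.65 in the deposited values and -1.45 after median centring, with number 4 of PRA1.B3 at the floor in both. Those 2 means differ only through number 4, since median centring divides all values of a sample by the same factor. In numbers 1, 2, 3, 5 and 6 the difference was smaller in size in the deposited values than after quantile normalization. From 2 to 4 weeks in number 6, deposited PRA1.B3 went from 1.35 to 0.565 and PRA1.B6 from 3.62 to 1.75. No mean without number 4 is given on those scales. The difference is a description of the same values and was not tested.

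The genes also differed in how far the samples of an age lay apart. The SD of the log2 values of PRA1.B3 was 1.75 at 4 weeks and 0.076 at 2 weeks (n = 6 each), against medians of 0.31 and 0.35 over all tested probes. Its SD stood at percentile 98.4 of the tested probes at 4 weeks and at percentile 4.36 at 2 weeks. The 4-week value rests largely on sample 4, whose place is set by the floor: over the other 5 samples the SD was 0.73, at percentile 87.3, where the median over the tested probes was 0.31. This check was chosen after the data were seen. For PRA1.B6 the SD was 0.17 at 4 weeks and 0.15 at 2 weeks, at percentiles 18.5 and 13.9. The standard error of PRA1.B3 comes from 1 spread for both ages, which lies below that of the 4-week samples and above that of the 2-week samples. Between both genes, the deviations from the age means had a Pearson's r of -0.04 over the 12 samples.

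4-week sample 4 did not stand out over the whole array. It was the lowest 4-week sample for 14.5% of the tested probes with a single lowest sample, where the 6 samples ranged from 13.3% to 20.3%. It had 2.50% of the tested probes at the floor, where the range was 2.06% to 2.53%. Its median deposited intensity was 0.397, inside the range of its age.

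The direction for both PRA1 genes is the same without any normalization. In the deposited intensities PRA1.B3 had 0.443, 0.366, 0.174, 0, 0.531 and 0.565 at 4 weeks and between 1.25 and 1.49 at 2 weeks. It averaged 1.38 ± 0.0768 (SD, n = 6) in the younger plants and 0.346 ± 0.220 in the older ones. PRA1.B6 had between 1.62 and 2.08 at 4 weeks, and between 3.58 and 5.23 at 2 weeks, with means of 1.80 ± 0.171 and 4.19 ± 0.645. Neither gene overlaps between the ages on this scale.

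The size, by contrast, moves with the scaling, since the deposited values as a whole are higher at 4 weeks. The median log2 change over all tested probes was 1.82 in the deposited values, 0.098 after quantile normalization and 0.14 after median centring. The log2 change of PRA1.B3 was -2.87 (SE 0.98) in the deposited values and -4.36 (SE 0.79) after median centring. Under each scaling 4-week sample 4 of PRA1.B3, deposited as 0, is at the floor and has a large part in these sizes. No fit without that sample is given for the deposited or the median-centred values. That of PRA1.B6 was -1.21 (SE 0.13) and -2.92 (SE 0.13). Relative to the median of all probes, PRA1.B3 stood at -4.69 in the deposited values, -3.53 after quantile normalization and -4.50 after median centring. PRA1.B6 stood at -3.04, -1.51 and -3.06 in the same order, so of the 3 scalings quantile normalization gave it the smallest distance from the median.

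**Figure D3:**
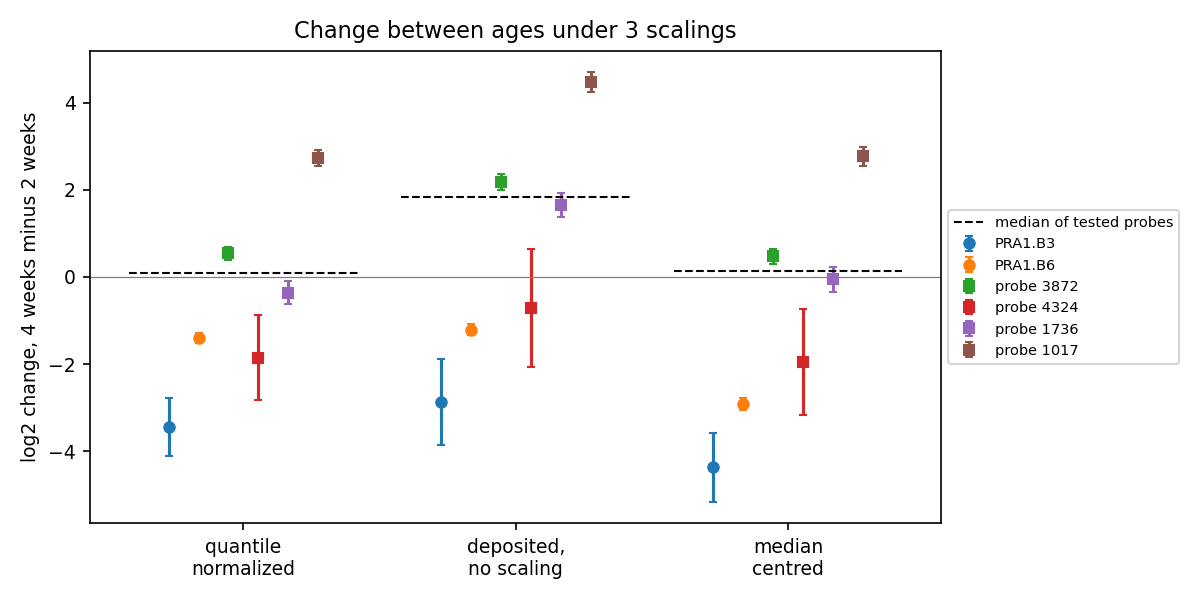
Log2 change, 4 weeks minus 2 weeks (vertical axis), of the PRA1 genes (circles) and of the probes annotated to several PRA1 genes (squares) under 3 scalings; bars are ± 1 SE from limma and dashed lines the median of all tested probes. Both PRA1 genes lie below the dashed line under each scaling, probe 1017 lies above it, and probe 1736 changes sign in the deposited values. 4-week sample 4 of PRA1.B3 is at the floor under each scaling.

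Beyond these genes, the family is seen only through probes that cannot be given to 1 gene. RefSeq names 19 PRA1 genes in Arabidopsis, and 8 of them appear in the array's annotation. A further 4 probes are each annotated to several PRA1 genes and to no gene outside the family, and they are reported here by probe number, with no value given to a single gene. They were added after the annotation had been seen. All 4 passed the filter, and limma called 2 higher at 4 weeks, 0 lower and 2 neither way, where 64.6% of the tested probes were called, 33.6% higher and 31.1% lower. With sample number as a block, 2 were called higher and 2 lower, where 68.5% of the tested probes were called.

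Probe 3872 is annotated to 3 genes of group B, of which PRA1.B3 is one. It went the other way from the probe for PRA1.B3 alone. Its normalized intensity was 0.383, 0.370, 0.489, 0.407, 0.333 and 0.255 in samples 1 to 6 at 2 weeks. At 4 weeks it was 0.524, 0.490, 0.565, 0.578, 0.533 and 0.508. It was higher at 4 weeks in each sample number, but the highest 2-week sample, number 3, nearly reached the lowest 4-week sample, number 2. The log2 change was 0.54 (SE 0.14, limma adjusted p = 0.00554), from a mean of 0.373 ± 0.0778 (SD, n = 6) to 0.533 ± 0.0336. The call was lost with adjacent sample numbers averaged, at a limma adjusted p of 0.0748, the highest of 21 alternatives, which went down to 2.52e-07. Relative to the median of all probes, the change was 0.44 here, 0.35 in the deposited values and 0.33 after median centring.

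Probe 4324 is annotated to 2 genes of group B, both of which are also on probe 3872. It is listed at 0 in 4-week samples 3 and 4 and in 2-week sample 4. In the other samples its normalized intensity was 0.175, 0.133, 0.170 and 0.0930 at 4 weeks (numbers 1, 2, 5 and 6) and 0.437, 0.617, 0.297, 0.402 and 0.382 at 2 weeks (numbers 1, 2, 3, 5 and 6). Where a sample was above the floor at both ages, the 4-week sample was the lower one. Its log2 change was -1.85 (SE 0.97, limma adjusted p = 0.114). With sample number as a block the limma adjusted p was 0.0144, and without samples 3 and 4 of both ages the change was -1.70 (SE 0.25, adjusted p = 7.16e-04). Without 2-week sample 4 alone it was -2.66 (adjusted p = 0.00779), and over 20 alternatives the limma adjusted p ran from 7.16e-04 to 0.628.

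Probe 1736 is annotated to the other 2 group B genes seen on the array beside PRA1.B6. Its normalized intensity ran from 0.0917 in sample 4 to 0.257 in sample 5 at 4 weeks, and from 0.137 in sample 4 to 0.294 in sample 1 at 2 weeks. The ages overlap, and sample 4 is the lowest at both. Its log2 change was -0.36 (SE 0.26, limma adjusted p = 0.253), and it was lower at 4 weeks in each of the 6 sample numbers. With sample number as a block the limma adjusted p was 0.0244. In the deposited values it was called higher instead, at 1.65 (adjusted p = 1.34e-04), which is -0.17 relative to the median of all probes, and over 21 alternatives the limma adjusted p ran up to 0.876.

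Probe 1017, annotated to 2 genes of group G, rose at 4 weeks and had the largest log2 change of the 4. At 2 weeks its normalized intensity was 0.183, 0.174, 0.129, 0.236, 0.224 and 0.241 in samples 1 to 6. At 4 weeks it was 1.34, 1.27, 1.05, 0.990, 1.67 and 1.50. All 4-week samples lie far above all 2-week samples, with 12 of 12 above the floor. The log2 change was 2.73 (SE 0.18, limma adjusted p = 6.41e-08), a 6.63-fold rise from 0.198 ± 0.0435 (SD, n = 6) to 1.30 ± 0.259. It was called in each of 21 alternatives, with limma adjusted p-values from 4.81e-09 to 2.96e-04. Relative to the median of all probes the change was 2.63 after quantile normalization, 2.64 in the deposited values and 2.62 after median centring.

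**Figure D4:**
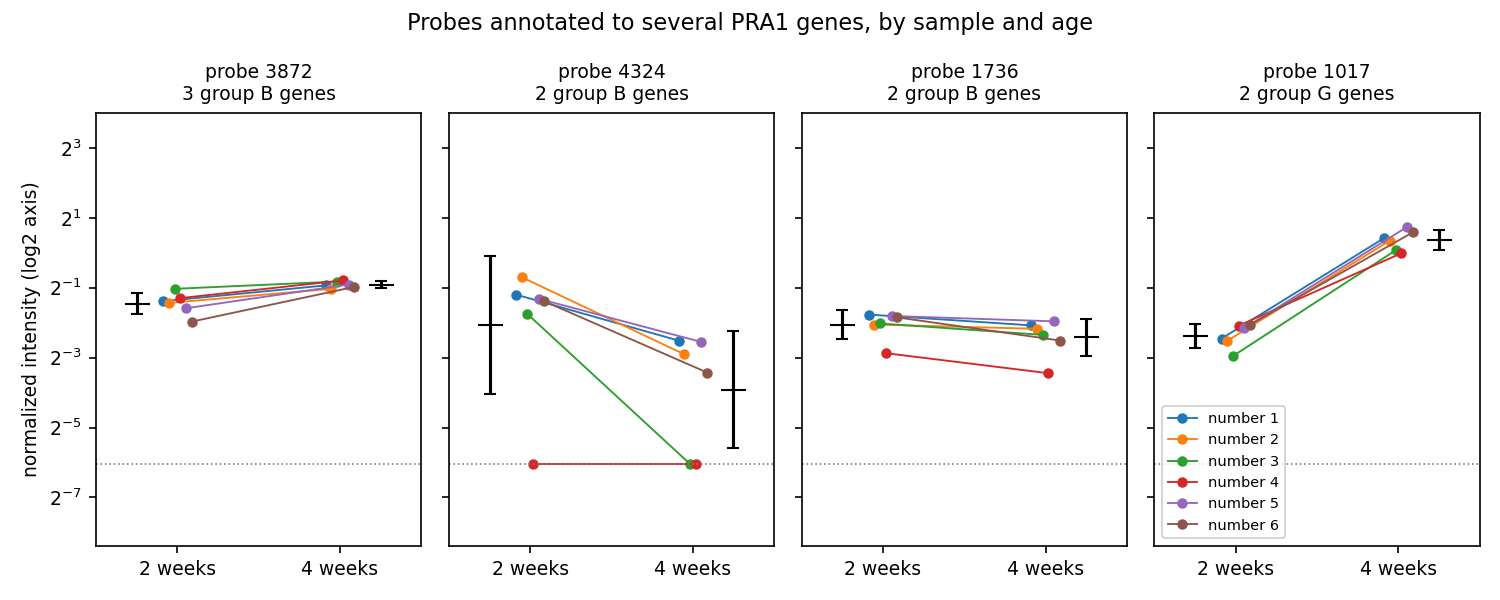
Normalized intensity (vertical log2 axis, no unit) of the 4 probes annotated to several PRA1 genes, in each sample at 2 and 4 weeks; lines join samples of the same number, black bars are the mean ± SD of the log2 values (n = 6), and the dotted line is the floor, 0.0152. Probe 1017 rises in every number, probe 3872 by less, and sample 4 is lowest at both ages for probe 1736 and at the floor at both ages for probe 4324.

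Sample 4 thus was the lowest 4-week sample for PRA1.B3 and for probes 1736 and 1017, and lay at the floor for probe 4324. Its neighbour, 4-week sample 3, also lay at the floor for probe 4324 and was the next lowest for PRA1.B3 and probe 1017. For probe 3872, by contrast, 4-week samples 4 and 3 were the highest, at 0.578 and 0.565. For PRA1.B6 both lay inside the range of the other 4-week samples. At 2 weeks sample 4 lay low for probes 4324 and 1736, but not for probe 1017, PRA1.B3 or PRA1.B6. Over the 12 deviations from the age means, Pearson's r of PRA1.B3 was 0.70 with probe 1736, 0.53 with probe 1017, 0.52 with probe 4324 and -0.18 with probe 3872. For PRA1.B6 it was 0.06, -0.44, 0.12 and 0.35 in the same order. All points share the same 12 arrays and their scaling, and r is given as a description.

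Of the other genes of vesicle traffic, the array names almost none. Lists of Rab GTPases, Rab regulators and prenylation enzymes, SNAREs, vesicle coats with Arf GTPases, and tethers with endosomal sorting complexes held 301 genes in RefSeq, of which 1 had a probe of its own. That gene is AT2G28390, named MON1 in RefSeq, a protein that acts with CCZ1 to activate Rab GTPases of the vacuolar route. Its normalized intensity was 0.487, 0.508, 0.647, 0.650, 0.855 and 1.16 in samples 1 to 6 at 4 weeks and lay between 0.380 and 0.491 at 2 weeks. The ages overlap slightly, through the lowest 4-week sample and the highest 2-week sample. MON1 rose by 0.67 on the log2 scale (SE 0.20, limma adjusted p = 0.0106), the opposite sign from the PRA1 genes. Relative to the median of all probes, its change was 0.58 after quantile normalization, 0.36 in the deposited values and 0.35 after median centring. Limma called 33.6% of all tested probes higher at 4 weeks, so nothing is read about vesicle traffic from this 1 call. Without samples 3 and 4 of both ages the limma adjusted p of AT2G28390 was 0.0611, with adjacent numbers averaged 0.0868, and over 21 alternatives it ran from 4.97e-07 to 0.0868. A probe annotated to 2 genes of the tether and sorting list was above the floor in 2 samples and was not tested.

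The named genes whose sample pattern was most like that of each PRA1 gene were taken by Pearson's r over the 12 deviations from the age means, out of 531 other named genes above the floor in at least 10 samples. For PRA1.B3 these were AT5G53920 (r = 0.89), AT2G39360 (0.87), AT1G71910 (0.82), AT3G09080 (0.81) and AT3G03890 (0.80), where the median r over the 531 was -0.05 and the 95th percentile 0.62. Within the 4-week samples r ran from 0.91 to 0.99 and within the 2-week samples from -0.26 to 0.23. Since nearly all of the spread of PRA1.B3 is at 4 weeks, ranking by r over 12 samples favours genes alike at that age, and nothing is read from this contrast. Without 4-week sample 4, r over 11 samples was 0.85 for AT5G53920 and between 0.19 and 0.51 for the other 4. Their log2 changes between ages lay between -0.08 and 1.20, against -3.43 for PRA1.B3.

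For PRA1.B6 the most like were ATAB2 (r = 0.70), which activates translation of photosystem proteins in the chloroplast, AT4G30680 (0.70), AT2G36920 (0.68), AT3G09490 (0.67) and FZL (0.67), a dynamin-like protein of chloroplast membranes. The median over the 531 genes was 0.00338 and the 95th percentile 0.47. Within the 4-week samples r ran from 0.54 to 0.91 and within the 2-week samples from 0.33 to 0.84. ATAB2 had the highest r at 4 weeks, 0.91, and the lowest at 2 weeks, 0.33. Leaving out 4-week sample 4, which lay inside the range of its age for PRA1.B6, gave r between 0.68 and 0.71 for these 5. Their log2 changes between ages went both ways, from -1.89 for AT4G30680 to 0.47 for ATAB2.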

How the data were processed

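The members and gene lists were chosen with earlier results of these data known. Per the deposited table, each of the 12 samples has 1 intensity per probe. How it was background-corrected and scaled, and the genome build, are not given in the sources used here. Coordinates are left out. All 12 columns were used.

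Arrays were quantile normalized, floored at the 1st percentile, logged (log2), averaged per gene and filtered (above the floor in at least 6 samples). Changes, 4 weeks minus 2 weeks, were fitted with limma 3.58.1 in R 4.3.3 (two-sided, Benjamini-Hochberg, threshold 0.05), which was tested on simulated data. Names came from the annotation table, updated through RefSeq (TAIR10.1, names only; 690 of 692 probes matched). Traffic genes were matched by patterns on symbols and synonyms, and all with a probe of their own are named.

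Deviations from age means of same-numbered samples correlated at 0.16 to 0.44 across genes in all 6 pairs. On this basis alone, since no label explains the numbers, they were taken as pairs for the changes by sample number and for the block fit. The main fit used age only and ignored the pairs. It gave the standard errors and adjusted p-values wherever no other setting is named. Neighbouring numbers (1 and 2, 3 and 4, 5 and 6) correlated too, at 0.41 to 0.50 in the 4-week samples and 0.01 to 0.31 in the 2-week samples, so at 4 weeks above all the samples may be fewer than 6 independent units. The number of arrays limits the precision.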

Additional observations from a re-analysis of the deposited data

Results flagged for a closer look

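Dixon's test picked out a single sample in 3 of 14 sets of 6 log2 values (7 genes or probes at 2 ages). Chance picks about 1 in 20. All 3 are sample 4 of probes annotated to several PRA1 genes. For probe 1736 the lowest 4-week value was -3.45, in sample 4, and the nearest other value was -2.51. Its lowest 2-week value, also in sample 4, was -2.87, with -2.05 as the nearest. Probe 4324 lay at the floor, -6.04, in 2-week sample 4, and the nearest other value was -1.75. That gap is set by where the floor was put. PRA1.B3 and PRA1.B6 gave no such sample at either age. For PRA1.B3 at 4 weeks this outcome depends on where the floor was put. Its sample 4 lay at the floor, -6.04, with -3.22 in sample 3 as the nearest value, so nothing is read from it.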

How the results depend on the processing

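Over 21 alternatives the changes of PRA1.B3 and PRA1.B6 and their difference kept their sign. For PRA1.B3, leaving out 1 sample at a time gave -3.70 to -2.83, and a floor at the 5th percentile -3.12. For PRA1.B6, leaving out 1 sample gave -1.50 to -1.33, and the change moved beyond its spread to -1.21 in the deposited values and -2.92 under median centring. The difference ran from -2.28 to -1.40 with 1 sample left out and was -1.05 without samples 3 and 4 of both ages. It was -1.65 in the deposited values and -1.45 under median centring, both with number 4 of PRA1.B3 at the floor. With replicate number as a block the SE was 0.63 for PRA1.B3 and 0.10 for PRA1.B6. With adjacent numbers averaged it was 0.79 and 0.17. With the block, the calls of probes 1736 (adjusted p = 0.0244) and 4324 (adjusted p = 0.0144) were gained in limma, and no other call of a named gene or probe changed. Probe 1736 reversed to 1.65 in the deposited values. The calls over the array were 994 higher and 920 lower, against 2245 and 327 in the deposited values, where the median probe stands higher at 4 weeks. With 1 sample left out they ran from 901 to 995 higher and from 877 to 912 lower, 1796 to 1897 in all. The 1 traffic gene called became 0 with adjacent numbers averaged and without samples 3 and 4 of both ages, and stayed at 1 with any 1 sample left out. Probe 4324 had no value without the dimmest 25% of probes. Other causes were not tested.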
